A study of Homo sapiens with 3 samples.

Results

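The genes described here code for the proteasome and for proteins that regulate or assemble it. They were taken as every entry of the count table whose symbol is PSM followed by a letter from A to G and a number, which gave 48 of the table's 26485 entries. By their known roles they comprise 7 alpha and 7 beta subunits of the constitutive core, 3 immunoproteasome subunits, the thymus-type PSMB11, the testis-type PSMA8, and 17 subunits of the regulatory cap. The other members are 3 chaperones for that cap (PSMD5, PSMD9 and PSMD10), 4 activators, the regulator PSMF1 and 4 chaperones for the core (PSMG1 to PSMG4). The cells were CAMA1, an established human breast cancer line described as estrogen receptor positive and FGFR1-amplified, at a passage below 10. They stood in estradiol-free medium for 48 h before RNA was taken, and all libraries come from this 1 line in this 1 state. No other state of the cells was sequenced in this series: its 3 libraries, biological replicates by their description, form 1 group, and the data allow levels, ratios between genes and the spread between libraries.

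The proteasome is the main protease of the cytosol and nucleus. Its core is a barrel of alpha and beta rings, with the proteolytic sites on the inner face of certain beta subunits, and a regulatory cap recognises ubiquitin-tagged proteins, unfolds them with a ring of ATPases and feeds them into the barrel. Interferon induces alternative catalytic subunits that replace the constitutive ones in newly built particles and alter the peptides made for antigen presentation, and other activators can dock on the barrel in place of the cap. In tumour cells, including breast cancer cells, constitutive proteasome genes are known to be widely expressed, and transcription factors of the NRF1 and NRF2 family are known to act on many of them.

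Totals were 26473939, 26592335 and 30745412 counts in replicates 1, 2 and 3. Levels are TPM, the deposited counts divided by the deposited gene lengths and scaled to a fixed sum per library, and errors are SD over libraries (n = 3). All 7 luminal epithelial markers were at 10 TPM or above, with KRT19 at 3256 ± 605 TPM and GATA3 at 803 ± 77.7 TPM. Of 6 immune markers, whose cells carry immunoproteasomes, none reached 10 TPM, the 6 summed to 8.80 to 11.5 TPM, and PTPRC had 3, 3 and 2 counts and CD3E 1, 0 and 0. The 3 endothelial markers summed to 0.0578 to 0.253 TPM. Among 4 fibroblast markers COL1A1 stood at 10.5 ± 0.270 TPM, COL1A2 and DCN had 0 counts, and the list summed to 10.2 to 10.8 TPM. Of 3 germ cell markers DAZL had 0 counts and SYCP3 reached 3.18 ± 0.764 TPM. In bulk RNA, fewer cells of a type and less RNA per cell cannot be told apart.

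Upstream sequence is shown for interferon-inducible members because their transcripts ran from low to abundant in cells kept in 1 state. The 250 bases before the annotated start of 4 of them are shown, from RefSeq on GRCh38.p14, in the direction of transcription. PSMB8 has more than one annotated start, of which the one farthest upstream in that table is used. Capitals mark the motifs searched on both strands, the CCAAT box (CCAAT) and a form of the antioxidant response element (TGACNNNGC), which do not overlap each other in these sequences.
PSMB8, chr6:32844680-32844929, minus strand: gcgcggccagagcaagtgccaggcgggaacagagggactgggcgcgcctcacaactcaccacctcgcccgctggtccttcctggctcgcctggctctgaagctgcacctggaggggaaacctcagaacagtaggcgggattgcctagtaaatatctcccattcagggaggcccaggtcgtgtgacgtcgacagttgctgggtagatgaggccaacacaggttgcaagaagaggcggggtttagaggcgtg
PSMB9, chr6:32853942-32854191, plus strand: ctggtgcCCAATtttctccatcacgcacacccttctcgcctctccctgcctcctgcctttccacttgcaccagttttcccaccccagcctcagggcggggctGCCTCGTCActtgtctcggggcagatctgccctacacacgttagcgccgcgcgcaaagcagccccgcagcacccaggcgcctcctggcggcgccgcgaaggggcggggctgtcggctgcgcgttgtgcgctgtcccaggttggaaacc
PSMB10, chr16:67936851-67937100, minus strand: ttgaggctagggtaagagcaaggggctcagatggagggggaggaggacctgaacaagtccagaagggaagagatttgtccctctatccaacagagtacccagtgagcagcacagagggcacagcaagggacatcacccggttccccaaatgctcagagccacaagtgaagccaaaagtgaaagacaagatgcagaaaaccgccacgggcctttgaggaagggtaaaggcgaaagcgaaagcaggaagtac
PSME2, chr14:24146611-24146860, minus strand: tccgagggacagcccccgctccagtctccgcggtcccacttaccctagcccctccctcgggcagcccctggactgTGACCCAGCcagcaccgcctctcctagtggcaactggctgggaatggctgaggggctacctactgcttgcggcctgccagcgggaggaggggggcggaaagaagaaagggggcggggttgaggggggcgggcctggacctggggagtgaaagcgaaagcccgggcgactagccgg
The sequence of PSMB9 holds an antioxidant-type match on the minus strand, 148 to 140 bases before the start, and a CCAAT box 243 to 239 bases before it. That of PSME2 holds an antioxidant-type match on the plus strand, 175 to 167 bases before the start. PSME1, the activator gene paired with PSME2, is not shown. Its sequence holds an antioxidant-type match on the plus strand, 86 to 78 bases before the start. PSMB8 and PSMB10 hold neither motif in this window. A match is a description of letters and not a bound site.

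RefSeq gave such a sequence for 42 of the 48 members, and PSMA7, PSMB1, PSMB6, PSMB7, PSMD4 and PSMG3 were without one. The antioxidant form was found before 13 of the 42, namely PSMA4, PSMB3, PSMB9, PSMC5, PSMD3, PSMD5, PSMD9, PSMD12, PSME1, PSME2, PSME4, PSMG1 and PSMG2, against 13.2% of 27305 genes in the same window. The CCAAT box was found before 19 of 42 members, or 45.2%, and 37.0% of genes. These shares are not matched for the number of starts or the type of gene. PSMB5, with more than one annotated start, held a CCAAT box before one of them and no match to the antioxidant form.

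Proteasome transcripts were abundant and nearly complete in CAMA1 cells. Of the 48 members 46 had at least 10 counts in each library, against 54.9% of all entries and 67.4% of protein-coding entries. Their median was 147 TPM, against 1.5 TPM over all entries and 8.09 TPM over protein-coding ones. Among detected genes alone the medians were 154 TPM for the 46 members and 25.8 TPM for protein-coding entries. A level of 100 TPM was reached by 32 members, or 66.7%, and by 10.2% of protein-coding entries, whereas 500 TPM was passed by PSMB4 alone. Together the members held 0.829%, 0.829% and 0.805% of TPM in replicates 1, 2 and 3. Without division by length they held 0.530 ± 0.00738% of counts.

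**Figure D1:**
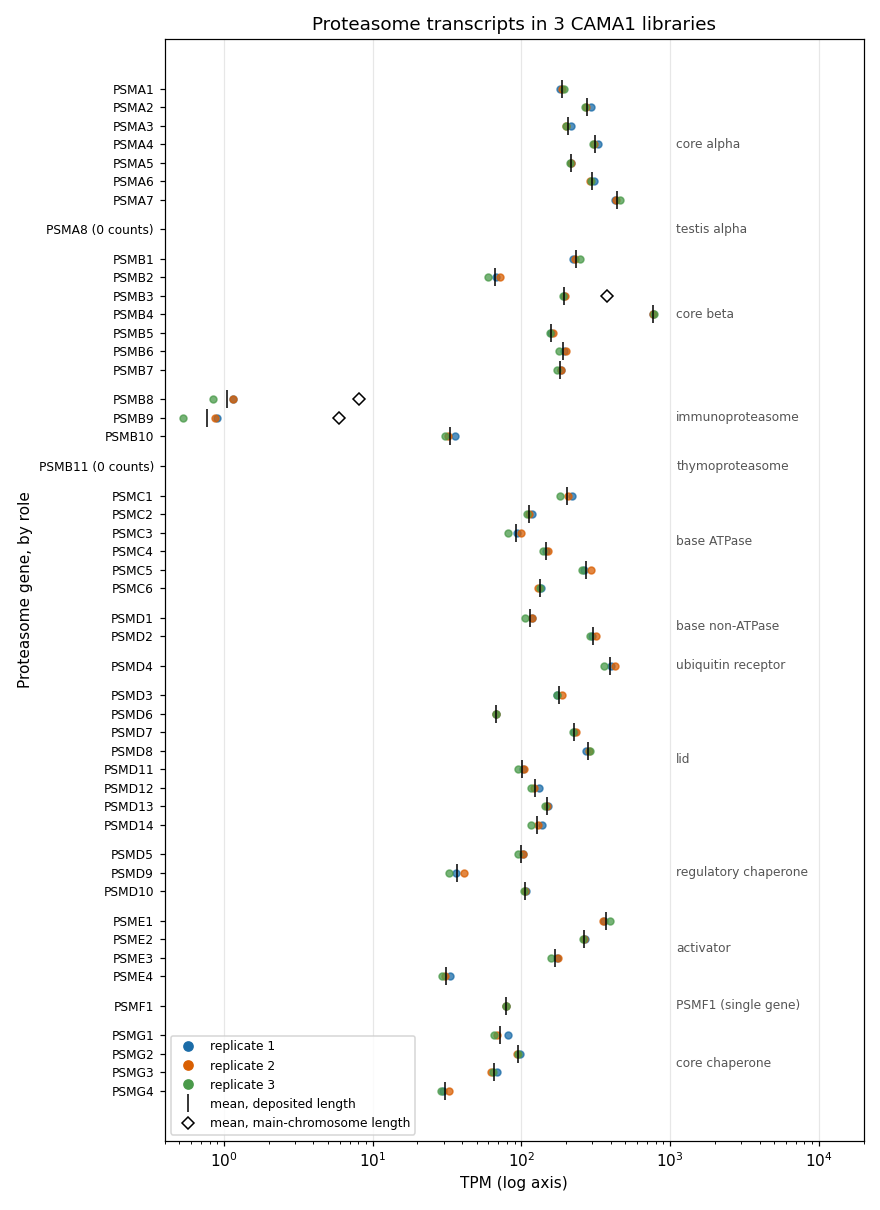
Level of each proteasome gene in TPM on a log axis, grouped by role, with 1 point per library, a bar at the mean and a diamond at the mean computed with the length on the main chromosome where an entry covers several sequences. Most genes lie between 50 and 500 TPM, PSMB4 stands above them at 770.3 TPM, and PSMB8 and PSMB9 stand far below on either length.

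The alpha subunits, which form the outer rings and the gate of the barrel, lay within a narrow range with deposited lengths. All 7 lay between 188 and 442 TPM, with a median of 277 TPM and a ratio of 2.35 between the highest and the lowest. PSMA7 was highest at 426, 436 and 463 TPM in replicates 1, 2 and 3, and PSMA1 was lowest at 183, 188 and 193 TPM. These ranges do not meet, and PSMA7 also stood clear of the next gene, PSMA4, at 313 ± 12.9 TPM. The ends of this order depend on length. With GENCODE exon lengths, called reference lengths from here on, PSMA7 was still highest at 298 TPM, PSMA4 was lowest at 84.1 TPM and the ratio was 3.55. Without division by length, in CPM (counts scaled to the library total), PSMA5 was highest at 312 CPM, PSMA7 had 172 CPM, PSMA3 was lowest at 77.5 CPM and the ratio was 4.03. With deposited lengths, the neighbours PSMA4 and PSMA6, PSMA6 and PSMA2, and PSMA5 and PSMA3 overlapped across libraries, so their order is not resolved. PSMA8, which replaces PSMA7 in the testis, had 0 counts in each library, which leaves room for up to 0.159, 0.158 and 0.135 TPM. Set at 3 counts per library, that places PSMA8 at least 2669-fold lower than PSMA7 with deposited lengths, and this bound moves with the lengths used.

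Beta subunits, which form the inner rings, were less even. PSMB4, a subunit without a proteolytic site, stood at 769, 763 and 779 TPM, and PSMB2, also without one, at 67.4, 71.4 and 59.5 TPM. PSMB4 exceeded each other beta gene in each library, and PSMB2 was below each of them, so the highest over the lowest was 11.7. PSMB4 lies on chromosome 1 (151399565 to 151401936) and PSMB2 on the same chromosome (35599541 to 35641844). The deposited lengths are 925 bases for PSMB4 and 4846 bases for PSMB2, and without division by length PSMB2 was second at 121 CPM, PSMB6 was lowest at 62.9 CPM and the ratio between the highest and the lowest beta gene was 4.27. PSMB4 was highest and PSMB2 lowest with reference lengths as well.

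The 3 proteolytic genes of the constitutive core lay close together. PSMB5, the chymotrypsin-like subunit, had 159, 162 and 157 TPM, PSMB6, the caspase-like one, 195, 199 and 180 TPM, and PSMB7, the trypsin-like one, 186, 186 and 173 TPM. PSMB6 and PSMB7 overlapped, and PSMB5 lay below both in each library. Without division by length that order turned, with PSMB5 at 87.3 CPM, PSMB7 at 69.5 CPM and PSMB6 at 62.9 CPM. The 3 genes lie apart, PSMB5 on chromosome 14 (23025851 to 23035220), PSMB6 on chromosome 17 (4796144 to 4798503) and PSMB7 on chromosome 9 (124353465 to 124415473). PSMB1 stood at 234 ± 13.1 TPM. PSMB3 stood at 193 ± 2.21 TPM with the deposited length of 1592 bases, which counts its exons on an alternate contig as well, and at 375 ± 4.48 TPM with the 796 bases on chromosome 17, which places it next after PSMB4.

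The immunoproteasome genes were far below the subunits they can replace. PSMB8, which takes the place of PSMB5, had 162, 163 and 141 counts, against 2285, 2356 and 2674 for PSMB5. PSMB9, the counterpart of PSMB6, had 74, 73 and 52 counts, against 1681, 1734 and 1843 for PSMB6. PSMB10, the counterpart of PSMB7, had 359, 324 and 365 counts, against 1867, 1885 and 2060 for PSMB7. In each pair the groups of values lie apart by a wide margin, and PSMB10 was nearest to its partner.

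The size of these gaps depends on gene length. It may also depend on how reads that match several sequences were counted, which is not given in the sources used here. PSMB8 and PSMB9 lie in the major histocompatibility region of chromosome 6 (32840717 to 32844935 and 32854161 to 32859851), and their entries cover 8 sequences, the chromosome and alternate versions of the region. The deposited lengths of 14174 and 8377 bases add up all of these, 7.99 times the 1773 and 1048 bases on chromosome 6. With deposited lengths PSMB8 stood at 1.15, 1.15 and 0.847 TPM and PSMB9 at 0.892, 0.873 and 0.529 TPM. With the chromosome 6 lengths, an alternative chosen after seeing the data, PSMB8 stood at 8.95, 8.94 and 6.57 TPM and PSMB9 at 6.92, 6.77 and 4.10 TPM. PSMB10 lies on chromosome 16 (67934504 to 67936877) in 1 place only and stood at 36.0, 32.3 and 30.9 TPM with its deposited length. PSMB10 was therefore the most abundant of the 3 on either length.

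Ratios were formed within each library with 0.01 TPM added to both genes. The log2 ratio of PSMB8 over PSMB5 was −7.24 ± 0.23 with deposited lengths and −4.26 ± 0.24 with main-chromosome lengths, so PSMB8 was 152-fold or 19.1-fold lower than PSMB5. For PSMB9 over PSMB6 the values were −7.99 ± 0.35 and −5.0 ± 0.35, or 253-fold and 32.1-fold. PSMB10 over PSMB7 gave −2.46 ± 0.08 on both, or 5.50-fold. As a share of the TPM of each pair, with main-chromosome lengths, PSMB8 made up 5.0 ± 0.746%, PSMB9 3.07 ± 0.677% and PSMB10 15.4 ± 0.762%. In all of the 8 pairs compared, the sign was shared by 3 of 3 libraries. For the pairs with PSMA8 or PSMB11, at 0 counts in each library, that sign could not have differed. An exact permutation test that flips signs (two-sided) gave p = 0.25 for every pair, before and after Benjamini-Hochberg adjustment over the pairs. No smaller p exists with 3 libraries, and 0.05 was out of reach.

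**Figure D2:**
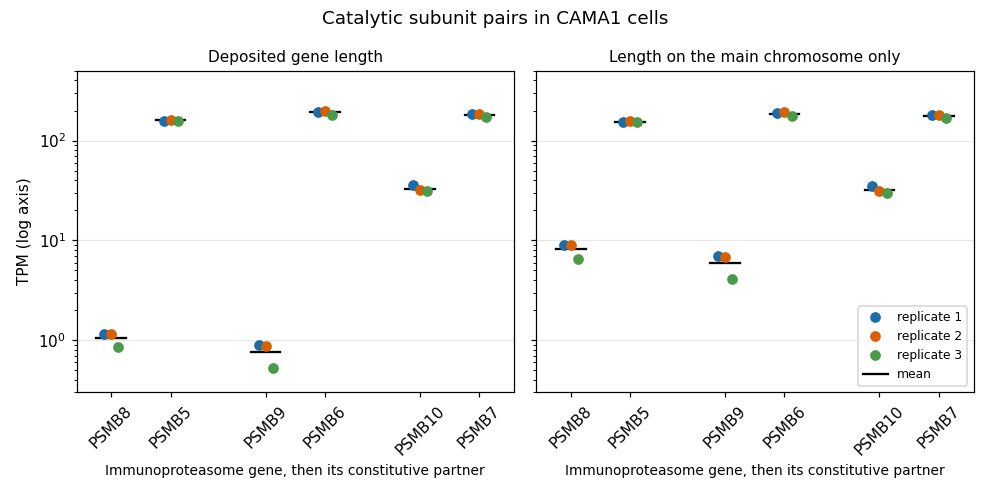
TPM on a log axis for the 3 immunoproteasome genes, each followed by its constitutive partner, with 1 point per library and a line at the mean, for deposited lengths on the left and main-chromosome lengths on the right. PSMB8 and PSMB9 lie at 0.529 to 1.15 TPM on the left and at 4.10 to 8.95 TPM on the right, below PSMB5 and PSMB6 in each library on both sides, and PSMB10 averages 33.1 and 32.1 TPM.

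PSMB11, the thymus-type subunit that replaces PSMB5 in thymic cortical epithelium, had 0 counts in each library. With deposited lengths, the limit of 3 counts places it at least 992-fold lower than PSMB5, a bound that also moves with length. PSMB11 is the direct neighbour of PSMB5 on chromosome 14, with its entry beginning 6946 bases past that of PSMB5 and no other entry between them.

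The regulatory cap genes stood below the core genes by their median in TPM, but not without division by length. The 17 cap genes among the members had a median of 146 TPM, against 210 TPM for the 14 constitutive core genes. Of the 17, 15 reached 100 TPM, against 10.2% of protein-coding entries. With reference lengths the medians were 122 and 206 TPM, and 11 of the 17 reached 100 TPM. Without division by length the medians were 137 and 132 CPM. The 6 ATPase genes ranged from PSMC3 at 94.1, 99.2 and 81.6 TPM to PSMC5 at 263, 294 and 255 TPM, a ratio of 2.95. No adjacent pair in the order PSMC5, PSMC1, PSMC4, PSMC6, PSMC2, PSMC3 overlapped across libraries with deposited lengths. With reference lengths PSMC1 was lowest, at 74.2 TPM against 203 TPM with deposited ones, and PSMC3 had 94.0 TPM. The scaffold genes of the base were PSMD2 at 303 ± 14.9 TPM and PSMD1 at 114 ± 6.50 TPM. PSMD4, a ubiquitin receptor, was the highest of these 17 in TPM at 400.3, 425 and 362 TPM. Without division by length PSMD2 exceeded it, at 362 against 199 CPM.

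The 8 lid genes spanned a ratio of 4.18. PSMD8 was highest at 273, 285 and 290.1 TPM, and PSMD6 lowest at 68.0, 67.3 and 67.7 TPM. With reference lengths both ends changed, to PSMD7 at 195 TPM and PSMD12 at 51.3 TPM, with PSMD8 at 166 TPM and PSMD6 at 71.2 TPM. PSMD14, the deubiquitinase that removes ubiquitin from substrates as they enter, had 137, 129 and 117 TPM. With deposited lengths PSMD14 overlapped PSMD12 at 123 ± 7.64 TPM, and the other lid neighbours in the order did not overlap.

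Genes for assembly chaperones were lower than those for subunits by their median. The 7 had a median of 71.7 TPM, and only PSMD10 reached 100 TPM, with PSMD5 next at 99.9 TPM. With reference lengths PSMD5 reached it too, at 104 TPM. Without division by length PSMD5 was highest at 131 CPM and PSMD10 had 62.9 CPM. Among those for the cap, PSMD10 stood at 108, 105 and 105 TPM and PSMD9 at 36.4, 41.1 and 32.7 TPM. Among those for the core, which work as the pairs PSMG1 with PSMG2 and PSMG3 with PSMG4, PSMG2 was highest at 97.3, 92.8 and 94.6 TPM and PSMG4 lowest at 29.9, 32.8 and 29 TPM. PSMG4 depends on its length, 1042 bases as deposited and 5816 bases in GENCODE, and with the GENCODE length it had 5.62 TPM and PSMG2 57.3 TPM, a ratio of 10.2 against 3.10. The genes of each pair were unequal, with PSMG2 above PSMG1 (71.7 ± 8.08 TPM) and PSMG3 (65.2 ± 3.51 TPM) above PSMG4 in each library. PSMF1, whose product inhibits the core in the test tube, stood at 78.9 ± 0.274 TPM.

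Among the activators, the interferon-type pair stood highest in TPM, but not without division by length. PSME1 had 358, 354 and 395 TPM and PSME2 266, 264 and 261 TPM, and their products assemble together on the barrel. PSME3, which forms the nuclear activator of the same type, had 173, 175 and 159 TPM, and PSME4, a large nuclear activator, had 33.1, 30.6 and 29.3 TPM. The 4 sets of values do not overlap. The log2 ratio over PSME1 was −0.48 ± 0.10 for PSME2, −1.12 ± 0.16 for PSME3 and −3.57 ± 0.16 for PSME4. PSME3 is over 3 times as long as PSME1 in the table, at 3803 against 1181 bases, and without division by length its log2 ratio over PSME1 was 0.56 ± 0.16, so that direction depends on length. In CPM PSME3 was highest of the 4 at 243 CPM, followed by PSME1 at 164, PSME4 at 82.9 and PSME2 at 82.5 CPM, and the log2 ratio of PSME4 over PSME1 was −0.99 ± 0.16. With reference lengths PSME2 had 151 TPM and PSME3 147 TPM. PSME1 (chromosome 14, 24136158 to 24138967) and PSME2 (24143365 to 24146646) lie 4397 bases apart with EMC9 between them, and both stood above the interferon-inducible PSMB8 and PSMB9 on each length and in CPM.

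Chromosome 14 held 8 of the 48 members, or 16.7%, against 3.27% of entries, and chromosome 17 held 7, or 14.6%, against 5.64%. Those on chromosome 14 were PSMA3, PSMA6, PSMB5, PSMB11, PSMC1, PSMC6, PSME1 and PSME2, and their levels ran from PSMB11 with no count to PSME1. PSMB8 and PSMB9 were the third pair of close neighbours, 9225 bases apart with PSMB8-AS1 and TAP1 between them.

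Of the partners of the proteasome outside the PSM symbols that are reported here, 19 of 19 were detected, with a median of 130 TPM. The 4 highest of these 19 were UBB and RPS27A, which code for ubiquitin, at 1483 ± 62.4 and 641 ± 42.7 TPM, SHFM1, a small cap subunit also known as SEM1, at 570.2 ± 21.7 TPM, and UBA1, a ubiquitin-activating enzyme, at 412 ± 21.9 TPM. POMP, the maturation factor of the core, stood at 199 ± 12.6 TPM, nearer to the subunits than to the PSMG chaperones. NFE2L1, the NRF1 factor that is known to raise proteasome genes when the particle is inhibited, stood at 136 ± 9.35 TPM, and its activators NGLY1 and DDI2 at 58.5 ± 5.99 and 11.9 ± 0.486 TPM. In the tests of spread between libraries described next, 12 of the 19 passed against Poisson error, where 41.6% of all tested genes did. Against the negative binomial dispersion 0 passed, where 1.21% of all tested genes did. None of the 19 was below an unadjusted p of 0.05 in that test, where 854 of 14453 tested genes were.

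The libraries were alike in the levels of proteasome genes. The SD was below 10% of the mean for 42 of the 46 detected members, with a median of 4.58%. The exceptions were PSMB8, PSMB9, PSMD9 and PSMG1. The highest library exceeded the lowest by a median factor of 1.08 in CPM, counts scaled to library totals with edgeR's TMM factors, against 1.11 over the 9999 tested genes with a mean of at least 10 CPM. The median deviation of members from their own mean was 0.0025, 0.0065 and −0.020 on the log2 CPM scale in replicates 1, 2 and 3, against 0.0023, 0.00091 and −0.00021 over all 14453 tested genes.

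Each gene was then tested for variation between libraries beyond Poisson counting error with a chi-square test on edgeR-scaled counts, adjusted by Benjamini-Hochberg over all tested genes. Of 46 members tested 21 passed an adjusted p of 0.05, or 45.7%, against 41.6% of all tested genes, so the share of the members was near that of the table. These shares are not matched for level, and the Poisson test finds smaller spreads at higher counts. Detected members had a median of 154 TPM and all detected entries 22.1 TPM. Without replicate 3, 7 members passed, or 15.2%, against 8.04% of genes. Without replicate 1, 17 members passed, or 37.0%, against 32.5% of genes, and without replicate 2 also 17, or 37.0%, against 37.1%. Replicate 3 thus stood farthest from the others. Measured against edgeR's trended negative binomial dispersion, which allows for the usual spread of genes at that level, no member passed, while 1.21% of all tested genes did. No member had an unadjusted p below 0.05 in that test, where 854 of the 14453 tested genes did.

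**Figure D3:**
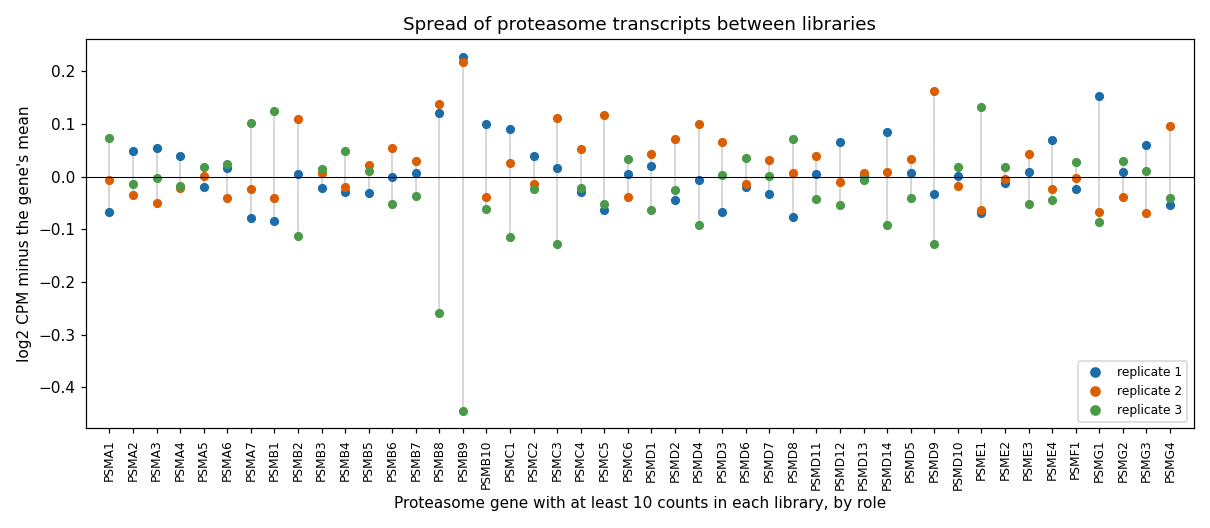
Deviation of each detected proteasome gene from its own mean in each library, on the log2 CPM scale, with genes ordered by role. Most points lie within 0.15 of 0, and PSMB8 and PSMB9 in replicate 3 lie lowest, at −0.26 and −0.44.

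The 21 that passed the Poisson test are listed by the library where each was highest. Over all tested genes 39.8% were highest in replicate 3, 27.5% in replicate 2 and 32.7% in replicate 1. A first set was highest in replicate 3. PSMA1 had 139, 145 and 154 CPM in replicates 1, 2 and 3, PSMA7 163, 169 and 184 CPM, PSMB1 76.2, 78.5 and 88.0 CPM, and PSMB4 264, 265 and 278 CPM. PSMD8 had 156, 165 and 172 CPM. PSME1 had 157, 157 and 180.1 CPM, with the smallest adjusted p of the members in the Poisson chi-square test on edgeR-scaled counts (2.89e-13). This set holds core, lid and activator genes, and each stood in its lowest position in replicate 1, as did 32.8% of all tested genes.

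A second set was highest in replicate 2. It held PSMB2 at 121, 130 and 111 CPM, PSMC3 at 55.1, 58.9 and 49.8 CPM, PSMC5 at 156, 177 and 157 CPM, and PSMD9 at 31.7, 36.4 and 29.7 CPM. From the rest of the cap it held PSMD1 at 145, 147 and 137 CPM, PSMD2 at 351, 380.3 and 356 CPM, PSMD3 at 141, 154 and 148 CPM and PSMD4 at 197, 213 and 186 CPM. PSME3 followed at 244, 250.1 and 234 CPM. The ATPase and scaffold genes of the base, 6 and 2 of the 46 members tested, made up 4 of these 9. The third set was highest in replicate 1, with PSMB9 at 2.77, 2.75 and 1.71 CPM, PSMC1 at 129, 123 and 112 CPM, PSMD12 at 86.9, 82.5 and 80.0 CPM, PSMD14 at 87.4, 82.9 and 77.4 CPM, PSME4 at 87.0, 81.6 and 80.4 CPM and PSMG1 at 34.2, 29.3 and 28.9 CPM. All 6 of these were lowest in replicate 3, as were 39.8% of all tested genes.

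The members that spread most between libraries were PSMB9 and PSMB8, both lowest in replicate 3. PSMB9 differed 1.62-fold between its highest and lowest library and PSMB8 1.32-fold, at 6.06, 6.13 and 4.64 CPM. In the Poisson chi-square test on edgeR-scaled counts PSMB9 passed with an adjusted p of 0.0300 and PSMB8 missed with 0.0572, and under the negative binomial dispersion both stood at 1.0. The call of PSMB9 was lost without replicate 3, and PSMB8 passed when replicate 1 was left out. PSMB10 at 13.4, 12.2 and 12 CPM and PSME2 at 81.8, 82.3 and 83.6 CPM did not pass, and PSME1 stood highest in replicate 3.

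All 7 genes reported here that act with interferon or in class I presentation were detected, and 6 of them passed the Poisson test and 1 the negative binomial one, against 41.6% and 1.21% of all tested genes. IRF1, an interferon regulatory factor, had 20.8, 20.9 and 11.5 CPM, and NLRC5, an activator of class I presentation genes, 5.65, 5.98 and 2.73 CPM. TAP1, a peptide transporter gene next to PSMB9, had 40.8, 40.7 and 36.7 CPM and TAP2 59.0, 57.8 and 52.4 CPM. B2M, the shared light chain of class I molecules, had 301.1, 305 and 286 CPM, TAPBP 222, 227 and 218 CPM, and ERAP1, which trims peptides, 31.3, 27.3 and 25.9 CPM. All 7 were lowest in replicate 3, as were PSMB8 and PSMB9, against 39.8% of all tested genes. In edgeR's negative binomial fit IRF1 passed with an adjusted p of 0.0323, whereas NLRC5 stood at 0.194. Luminal epithelial markers moved with replicate 3 the other way: 6 of 7 were highest there and EPCAM lowest, where 39.8% of all tested genes were highest. These 7 markers summed to 7606, 8442 and 9383 TPM in replicates 1, 2 and 3. KRT19 had 1482, 1733 and 2222 CPM, GATA3 841, 899 and 1055 CPM and FOXA1 552, 606 and 707 CPM, and none of the 7 passed the negative binomial test. The part of these genes and markers in the spread of PSMB8 and PSMB9 was not tested, and those 2 members rest on 52 to 163 counts per library. Of the immune markers, CD68 had 62.6, 61.2 and 55.5 counts and LYZ 115, 80.4 and 115, and the other 4 had at most 7 in any library.

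**Figure D4:**
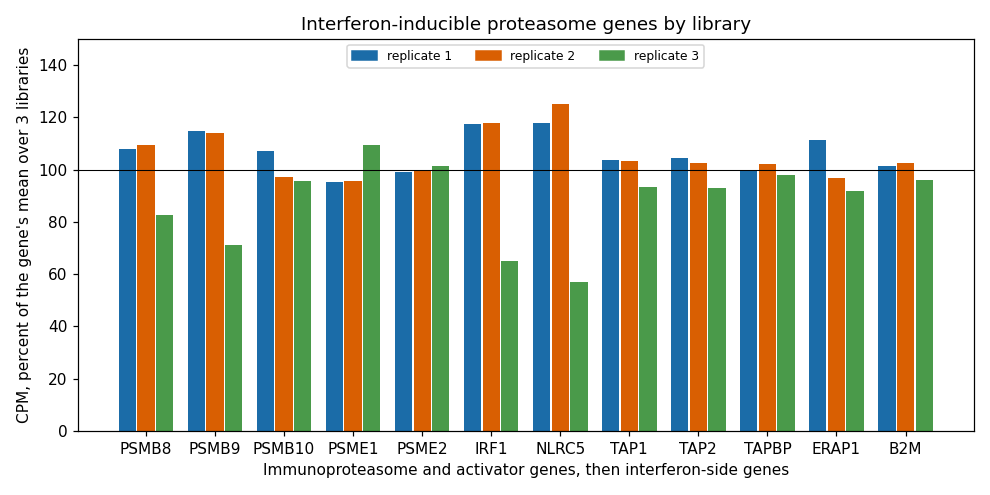
CPM in each library as a percent of the gene's mean over 3 libraries, for immunoproteasome and interferon-type activator genes followed by interferon-side genes. The bars of replicate 3 are lowest for PSMB8, PSMB9, PSMB10, IRF1, NLRC5, TAP1, TAP2, TAPBP, ERAP1 and B2M and highest for PSME1 and PSME2.

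Some levels carry an uncertainty from shared sequence. GENCODE lists 32 pseudogenes named after 12 of the members, among them 13 named after PSMC1 and 4 after PSMA6, and none of the 32 has an entry of its own in the table. Counts of PSMB2, PSMC1, PSMC5, PSMD4 and PSME2 were not whole, and how reads with several matches were counted is not given in the sources used here. An antisense entry named after PSMA3, PSMB8, PSMD5, PSMD6 or PSMG3 stands in the table, and the strand setting of the counting is not given in the sources used here.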

How the data were processed

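Poly-A RNA of 3 libraries was sequenced after a stranded Illumina mRNA preparation, per the labels' protocols. The authors deposited expected counts per gene, which need not be whole, with a length per gene, and the build was hg38 and the tools included featureCounts, Subread and TopHat, per the submitters' processing notes. Their versions, annotation and settings are not given in the sources used here. Each deposited length sums the exons of an entry over all sequences it covers, which lowers the TPM of genes with alternate contigs. Coordinates are 1-based, on hg38. TPM was computed from deposited counts and lengths over all 26485 entries. At least 10 counts in each library counted as detected, and a count of 0 allows up to 3, which covers counting error only. For variation, counts were rounded and analysed with edgeR 4.0.16 (TMM factors 1.01, 1.00 and 0.990, its low-count filter, intercept only) by a chi-square test of each gene over the 3 libraries. The procedure was tested on simulated data, where the pass mark for the negative binomial test was lowered after a first result was seen. Alternatives used DESeq2 1.42.0 size factors, no filter, trended dispersion, other lengths from the basic set of GENCODE 29 or the file, other count minimums and pseudocounts, and libraries left out. Members, lists and tests were chosen with earlier results of these data known. Named with values per library were the catalytic genes and PSMA8, the activators, the highest and lowest of each role group, and members called for variation; SHFM1 and KIAA0368 are older symbols of listed genes, and 2 genes of the lists are not reported here. Whether libraries were grown or sequenced together is not stated, so p-values measure the spread of these libraries alone, which may be technical.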

Additional observations from a re-analysis of the deposited data

How the results depend on the processing

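No paired analysis was possible because the series has 1 group. The count of 46 detected members was kept with count minimums of 1 and 20 and without any 1 replicate. The count of members varying beyond Poisson error was 21, and 0 under the trended negative binomial dispersion; leaving out 1 replicate gave 7 to 17, the lowest without replicate 3. The median of detected members, 154 TPM, was 127 with reference lengths, 110 without division by length (CPM) and 149 with the file's main-chromosome lengths. Highest over lowest moved with length. With reference lengths it was 3.55 for alpha, 3.80 for lid and 10.2 for PSMG genes; without division by length it was 4.03 for alpha, 4.27 for beta, 3.49 for lid, 3.46 for PSMG genes and 2.94 for activators. PSME3 over PSME1 reversed to 0.56 without division by length, since PSME3 has the longer deposited length. The other ratios kept their sign under each alternative, which was bound to happen for PSMA8 and PSMB11 at 0 counts. With library totals in place of TMM the median deviation was 0.018 in replicate 1 and −0.035 in replicate 3. Of single-gene levels, 34 of 48 moved by over 1 SD with reference lengths and 16 with main-chromosome lengths. Only 3 members change length in the latter setting, and the rest shift with the common scaling to a fixed sum. Without division by length 45 moved, but TPM gives way to CPM there, so the change of unit alone can move a level. Depth limits PSMA8 and PSMB11, at 0 counts, to an upper bound, and PSMB9 rests on 52 to 74 counts per library.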
